A study of Mus musculus with 14 samples.

Results

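Small intestinal organoids that had lost *Rnaseh2b* were set directly against organoids that had lost *Atg16l1*, within a single sequencing lane. The comparison used 6 of the 14 libraries of the series, 2 from *Rnaseh2b* ΔIEC and 4 from *Atg16l1* ΔIEC cultures, all run in lane 2. It covered the 12802 genes, of 18781 in the deposited table, whose mean log2 value over all 14 libraries was at least log2 of 10 (3.3219); *Nup210l* (3.324) was the lowest gene inside this limit and *Plekhs1* (3.3218) the highest outside it. By their labels, *Rnaseh2b* ΔIEC organoids carried RNaseH2Bflox/flox with VillinCre+/-, and *Atg16l1* ΔIEC organoids carried ATG16L1flox/flox with VillinCre+/-. Villin-Cre deletes a floxed gene in intestinal epithelial cells, so both groups share the Cre transgene and differ in the floxed locus. The other libraries, from 4 cultures with both deletions (2 in lane 2, 2 in lane 1) and 4 WT cultures (lane 1), entered the fit as groups of their own and are quoted here as levels only. WT cultures carried both floxed loci without Cre by their labels, which leaves *Rnaseh2b* ΔIEC as the 1 genotype without the floxed *Atg16l1* allele. All cultures were untreated organoids grown in commercial organoid medium, and poly(A) RNA was sequenced as stranded single-end reads. The study had left out 2 further *Rnaseh2b* ΔIEC samples for their read counts.

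RNase H2 is a nuclear enzyme that removes ribonucleotides built into DNA and the RNA strand of RNA:DNA hybrids. *Rnaseh2b* encodes one of its subunits, and cells without the enzyme accumulate DNA damage that can activate p53 and the cGAS-STING pathway of DNA sensing. ATG16L1 is part of the complex that attaches LC3 to the growing autophagosome, and it is known in the gut for its role in Paneth cells and for a variant linked to Crohn's disease. A contrast of both knockouts shows where they differ, and a difference can come from either genotype. For this reason each main result is given with the levels of the other groups.

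Some properties of the libraries bear on every value below. Libraries 1 and 2 of *Atg16l1* ΔIEC deviated together from their group mean (r = 0.31 across 12404 autosomal genes, which are not independent replicates), as did libraries 3 and 4 (r = 0.58). Libraries 1 and 2 of *Atg16l1* ΔIEC had high *Xist* (13.32 and 13.24) and low Y-linked transcripts, whereas libraries 3 and 4 and both *Rnaseh2b* ΔIEC libraries had *Xist* between 7.66 and 7.80 and high Y-linked transcripts. The 2 *Rnaseh2b* ΔIEC libraries differed from each other by a median of 0.051 per gene, about as little as members of an *Atg16l1* ΔIEC pair (0.047 and 0.065), whereas *Atg16l1* ΔIEC libraries of different pairs differed by 0.081 to 0.099 and libraries of different genotypes by 0.086 to 0.10. The *Rnaseh2b* ΔIEC group is thus close to a single pair of libraries of 1 sex pattern, and nothing in the labels says that its members came from separate mice. P-values rest on the spread within genotypes pooled over all 14 libraries, including double knockouts of both lanes. This spread may be partly technical, and little of it comes from *Rnaseh2b* ΔIEC. A second fit treated each pair as a random effect (the correlation within pairs was estimated at 0.65), and it is given below as an adjusted p or as a count of calls kept. The deposited log2 values are compressed at low levels: the Y-linked gene *Eif2s3y* still read 6.43 and 6.47 in the libraries with high *Xist*. A low value is therefore no measure of residual transcript, and differences involving low values are understated. Sequencing depth per library is unknown, since the table holds no counts. The epithelial genes *Epcam*, *Krt8* and *Cdh1* lay between 14.62 and 14.88 in all 6 libraries. The defining markers of other tissues were low: *Ptprc* of leukocytes lay between 0.47 and 0.50 and *Col1a1* of fibroblasts between 2.05 and 2.11. Of 15 stromal and immune genes in the table, 5 were below 0 in all 6 libraries. Their summed linear value was 691 to 715 in *Rnaseh2b* ΔIEC and 761 to 835 in *Atg16l1* ΔIEC, led by *Lyve1* (8.37 to 8.84). The part of these genes in the results was not tested.

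The targeted genes followed the labels. *Atg16l1* (ENSMUSG00000026289, GRCm38 chr1:87755870-87792428, plus strand) read 9.52 and 9.53 in *Rnaseh2b* ΔIEC and 6.87, 7.35, 6.75 and 6.73 in *Atg16l1* ΔIEC. The groups lay far apart, and the 4 WT libraries (9.43 to 9.54) sat at the level of *Rnaseh2b* ΔIEC. The log2 difference, *Rnaseh2b* ΔIEC minus *Atg16l1* ΔIEC throughout, was 2.60 ± 0.15 (SE; 95% interval 2.28 to 2.92; limma adjusted p = 5.6e-07), or 6.05-fold on this compressed scale. *Rnaseh2b* (ENSMUSG00000021932, GRCm38 chr14:62292589-62372992, plus strand) read 7.21 and 7.15 in *Rnaseh2b* ΔIEC and 8.71, 8.72, 8.58 and 8.48 in *Atg16l1* ΔIEC. All 4 *Atg16l1* ΔIEC libraries were above both *Rnaseh2b* ΔIEC libraries, and WT lay at 8.41 to 8.70. Here the difference was -1.44 ± 0.09 (adjusted p = 1.2e-06). Both calls held with the pair as a random effect (adjusted p = 3.2e-05 and 8.2e-05). In the double knockout both transcripts were less reduced than in the single knockouts, with *Atg16l1* at 8.14 to 8.57 and *Rnaseh2b* at 7.68 to 7.92.

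Across the transcriptome 872 of 12802 genes (6.81%) differed at an adjusted p under 0.05. Of these, 556 (4.34% of genes tested) were higher in *Rnaseh2b* ΔIEC and 316 (2.47%) were higher in *Atg16l1* ΔIEC. Most differences were small: the median absolute difference of the called genes was 0.29, and 692 of them were below 0.5. Larger differences were one-sided, since 30 of the 33 called genes beyond 1 were higher in *Rnaseh2b* ΔIEC. In all 872 genes the 6 libraries did not overlap between the groups, a property shared by 37.8% of all genes tested. The split by direction depended on scaling: 63.8% of called genes were higher in *Rnaseh2b* ΔIEC as deposited and 44.4% (418 of 941) after scaling to equal totals, which moved the median of all genes from 0.004 to -0.03. The count also rests on few libraries, falling to 170 without *Rnaseh2b* ΔIEC replicate 1, to 90 without replicate 2 and to 504 without *Atg16l1* ΔIEC replicate 4. With the pair as a random effect 61 genes (0.476%) were called, all of them among the 872, and 53 of the 61 were higher in *Rnaseh2b* ΔIEC. Against *Atg16l1* ΔIEC libraries 3 and 4 alone, which have the sex pattern of *Rnaseh2b* ΔIEC, 416 of the 872 genes were called again.

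**Figure D1:**
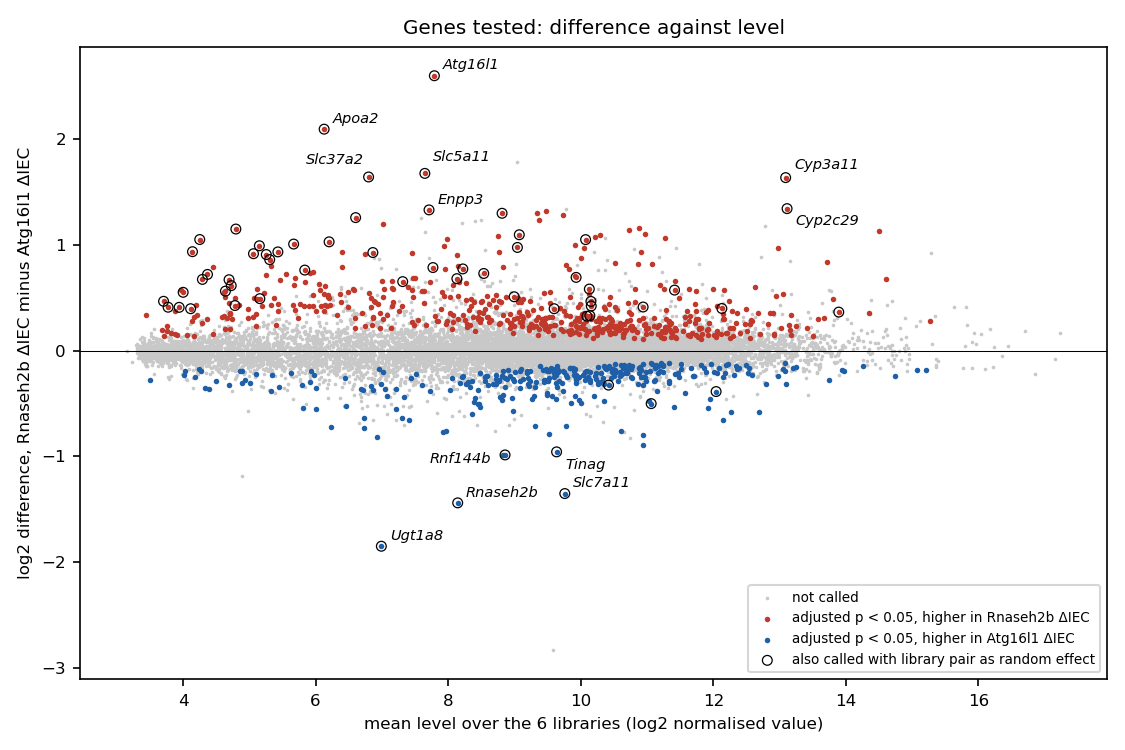
Each point is a gene tested, with its mean log2 value over the 6 libraries on the x axis and its log2 difference, Rnaseh2b ΔIEC minus Atg16l1 ΔIEC, on the y axis. The 556 genes called higher in Rnaseh2b ΔIEC are red, the 316 called higher in Atg16l1 ΔIEC are blue, rings mark the 61 also called with the library pair as a random effect, and most called genes lie within 0.5 of zero.

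After *Atg16l1* itself, the largest rise in *Rnaseh2b* ΔIEC was in *Apoa2*. This gene, which encodes an apolipoprotein of high-density lipoprotein (chr1:171225054-171226379), read 7.50 and 7.54 in *Rnaseh2b* ΔIEC and 5.39, 5.41, 5.58 and 5.34 in *Atg16l1* ΔIEC. WT (5.24 to 5.62) and double knockout libraries (5.38 to 5.82) were all at the *Atg16l1* ΔIEC level, so *Rnaseh2b* ΔIEC stood alone. The difference was 2.09 ± 0.13 (adjusted p = 1.2e-06; pair as a random effect, 1.1e-05). *Slc5a11*, a sodium-coupled inositol and glucose transporter, read 8.75 and 8.78 against 6.84, 6.78, 7.54 and 7.19. The *Atg16l1* ΔIEC libraries 3 and 4 were nearer to *Rnaseh2b* ΔIEC than libraries 1 and 2, and the difference was 1.67 ± 0.31 (adjusted p = 0.0070). *Slc37a2*, a sugar-phosphate exchanger, read 8.01 and 7.77 against 6.36, 6.30, 6.17 and 6.16. Its double knockout libraries (6.97 to 7.27) lay between the groups, and the difference was 1.64 ± 0.12 (adjusted p = 5e-06).

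The drug-metabolising P450 genes *Cyp3a11* and *Cyp2c29* rose from already high levels. *Cyp3a11* read 14.21 and 14.15 in *Rnaseh2b* ΔIEC and 12.45, 12.32, 12.77 and 12.64 in *Atg16l1* ΔIEC, a difference of 1.63 ± 0.30 (adjusted p = 0.0069). *Cyp2c29* read 14.05 and 13.97 against 12.44, 12.56, 12.93 and 12.73, a difference of 1.34 ± 0.24 (adjusted p = 0.0059). In both genes the lane 2 double knockout libraries (13.13 to 13.23) lay between the groups, and for *Cyp3a11* those of lane 1 (12.04 to 12.09) lay below them. *Enpp3*, an ectonucleotidase gene, rose by 1.33 ± 0.09 (adjusted p = 3.3e-06) and *S100g*, the calcium-binding protein of the calcium-absorbing enterocyte, by 1.30 ± 0.13 (adjusted p = 5.7e-05). *G6pc*, the glucose-6-phosphatase that releases free glucose, read 10.34 and 10.37 against 8.78, 8.62, 9.53 and 9.23. *Reg3a*, an antimicrobial lectin, read 9.96 and 10.45 against 8.54, 8.48, 9.72 and 8.84, and its *Atg16l1* ΔIEC library 3 came close to the lower *Rnaseh2b* ΔIEC library. The zinc transporter gene *Slc30a2* (1.28) and *Slc7a15* (1.26) complete the 12 largest rises. With the pair as a random effect 9 of these 12 were called again, all except *G6pc* (adjusted p = 0.088), *Reg3a* (0.39) and *Slc30a2* (0.16).

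The largest fall was in *Ugt1a8*, a UDP-glucuronosyltransferase gene (ENSMUSG00000089675, chr1:88087813-88219004). It read 5.77 and 5.74 in *Rnaseh2b* ΔIEC and 7.54, 7.57, 7.70 and 7.62 in *Atg16l1* ΔIEC, a difference of -1.85 ± 0.08 (adjusted p = 3.1e-08; pair as a random effect, 3e-06). WT (7.18 to 7.48) and double knockout (7.45 to 7.58) libraries were close to *Atg16l1* ΔIEC. The gene begins 0.33 Mb from the start of *Atg16l1*, and *Ugt1a* genes share their last exons, so reads there could be split or dropped in a way the sources used here do not state. *Slc7a11*, the cystine importer that feeds glutathione synthesis, read 8.92 and 8.80 against 10.11, 10.31, 10.20 and 10.21. Both *Rnaseh2b* ΔIEC libraries were below every other library of the series, WT (9.47 to 9.87) included, and the difference was -1.35 ± 0.22 (adjusted p = 0.0034). *Rnf144b*, a ubiquitin ligase gene, and *Tinag*, a basement membrane gene, showed another pattern. *Rnf144b* read 8.11 and 8.29 against 9.19, 8.98, 9.18 and 9.39, with WT at 8.02 to 8.19. *Tinag* read 9.0 and 8.99 against 9.97, 9.94, 9.93 and 9.97, with WT at 9.20 to 9.27 and the double knockout at 9.28 to 9.41. For these genes the *Atg16l1* ΔIEC libraries were above all other libraries of the series. Their differences were -0.99 ± 0.10 (adjusted p = 5.7e-05) and -0.96 ± 0.04 (adjusted p = 5.1e-08). The remaining falls included *Akr1b8* (-0.99), an aldo-keto reductase, *Aldh1l2* (-0.89) of mitochondrial folate metabolism, *Pycr1* (-0.79) of proline synthesis, the inflammasome sensor *Naip5* (-0.80), the goblet cell gene *Clca1* (-0.77), *Bcl2l15* (-0.82) and *Bace2* (-0.76). Of the 12 largest falls, 5 were called with the pair as a random effect, namely *Ugt1a8*, *Rnaseh2b*, *Slc7a11*, *Rnf144b* and *Tinag*.

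**Figure D2:**
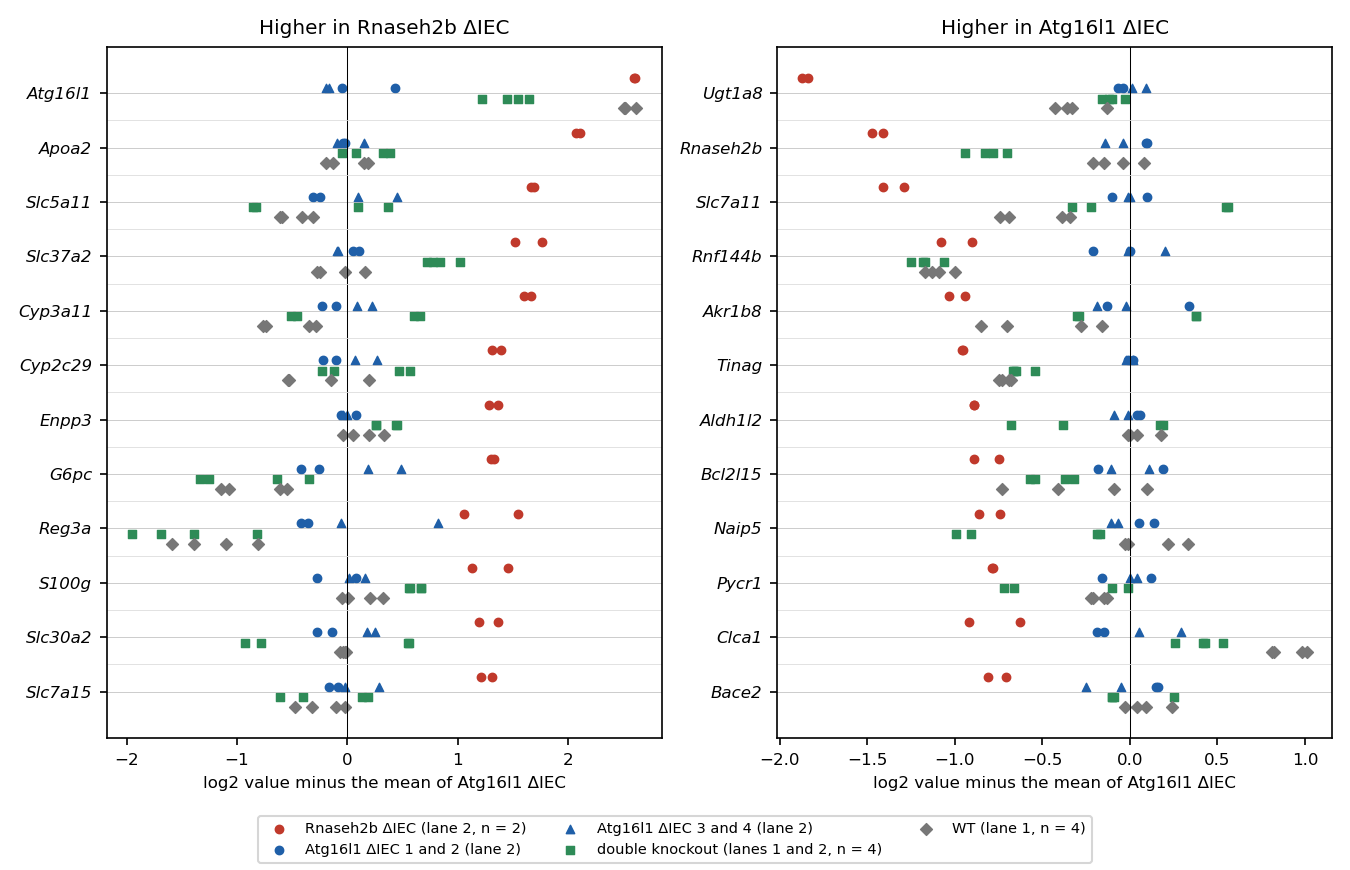
Each symbol is 1 library of a gene among the 12 largest rises (left) or falls (right), as its log2 value minus the mean of Atg16l1 ΔIEC; Rnaseh2b ΔIEC is red, Atg16l1 ΔIEC blue (circles 1 and 2, triangles 3 and 4), the double knockout green and WT grey. Rnaseh2b ΔIEC stands alone for Apoa2 and Ugt1a8, while for Rnf144b and Tinag the Atg16l1 ΔIEC libraries are above all others.

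Among the 12 rises, the WT mean was nearer to *Atg16l1* ΔIEC than to *Rnaseh2b* ΔIEC in 11 genes, *Atg16l1* being the exception, and the mean of the lane 2 double knockout was nearer to it in 10. Among the 12 falls these counts were 9 and 5. WT was run in the other lane, so for WT lane and genotype cannot be told apart.

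The absorptive enterocyte was covered by 3 gene lists. Of 20 brush border hydrolase and structural genes tested, 6 were called higher and 0 lower, with 18 above zero and a median difference of 0.49 (all genes: 51.5% above zero, median 0.004). Of these 6 calls, 5 were lost with the pair as a random effect (adjusted p = 0.12 to 0.33). The called members were *Ace* (1.16), *Ggt1* (1.14), *Mme* (1.06), *Mep1b* (1.05), *Anpep* (0.68) and *Cdhr2* (0.30), most of them peptidases that finish protein digestion at the cell surface. *Ggt1*, a glutathione-cleaving transferase, read 11.45 and 11.54 against 9.91, 10.24, 10.80 and 10.46 (difference 1.14 ± 0.24; adjusted p = 0.014). The groups did not overlap. *Mep1b*, a meprin subunit, was the 1 member also called with the pair as a random effect (difference 1.05 ± 0.15; adjusted p = 0.0011 and 0.0096). Sucrase-isomaltase, *Sis*, was not called: it read 15.76 and 16.03 against 15.37, 15.03, 15.83 and 15.72, and the groups overlapped. *Vil1*, the villin gene, also overlapped (difference 0.08 ± 0.08).

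Of 20 enterocyte transporters, 5 were called higher and 0 lower, with a median of 0.53. *Slc6a19*, which takes up neutral amino acids, read 11.53 and 11.53 against 10.46, 10.30, 10.97 and 10.67. *Slc15a1*, the peptide transporter, read 9.33 and 9.45 against 8.24, 8.32, 8.75 and 8.51. The other called members were *Slc13a1* for sulfate (0.76), *Slc46a1* for folate (0.70) and *Slc51a* for bile acids (0.60). *Slc5a1*, the main glucose transporter, was 0.48 ± 0.18 higher and missed the threshold (adjusted p = 0.13). Of these 5, *Slc13a1* was called with the pair as a random effect (adjusted p = 0.0049) and the others were not (0.068 to 0.18).

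Of 18 genes of fat absorption 5 were called higher and 0 lower, with a median of 0.33. None of the 5 was called with the pair as a random effect (adjusted p = 0.059 to 0.34). *Apoa4*, a chylomicron apolipoprotein, read 15.24 and 15.26 against 13.84, 13.89, 14.52 and 14.22, a difference of 1.13 ± 0.18 (adjusted p = 0.0028). *Apoc3* (1.10), *Apoa1* (0.97), the fatty acid carrier *Fabp2* (0.84) and the triglyceride enzyme *Mogat2* (0.66) were also called. Taken over the 3 lists, 16 of 58 genes tested (27.6%, against 6.81% of all genes) were called, all higher in *Rnaseh2b* ΔIEC, and 2 with the pair as a random effect.

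These groups also varied within *Atg16l1* ΔIEC. The median level of the hydrolase list, relative to the mean of the 6 libraries, was 0.27 and 0.42 in *Rnaseh2b* ΔIEC and -0.38, -0.37, 0.06 and -0.01 in *Atg16l1* ΔIEC libraries 1 to 4. Libraries 3 and 4, with the sex pattern of *Rnaseh2b* ΔIEC, were closer to it than libraries 1 and 2. Against libraries 3 and 4 alone, the medians of the 3 lists fell to 0.32, 0.30 and 0.19, and 2, 3 and 1 members were called. In that fit 619 of all 12802 genes were called. WT (-0.50 to -0.15) and double knockout libraries (-0.51 to -0.20) had lower medians of the hydrolase list than both *Rnaseh2b* ΔIEC libraries.

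**Figure D3:**
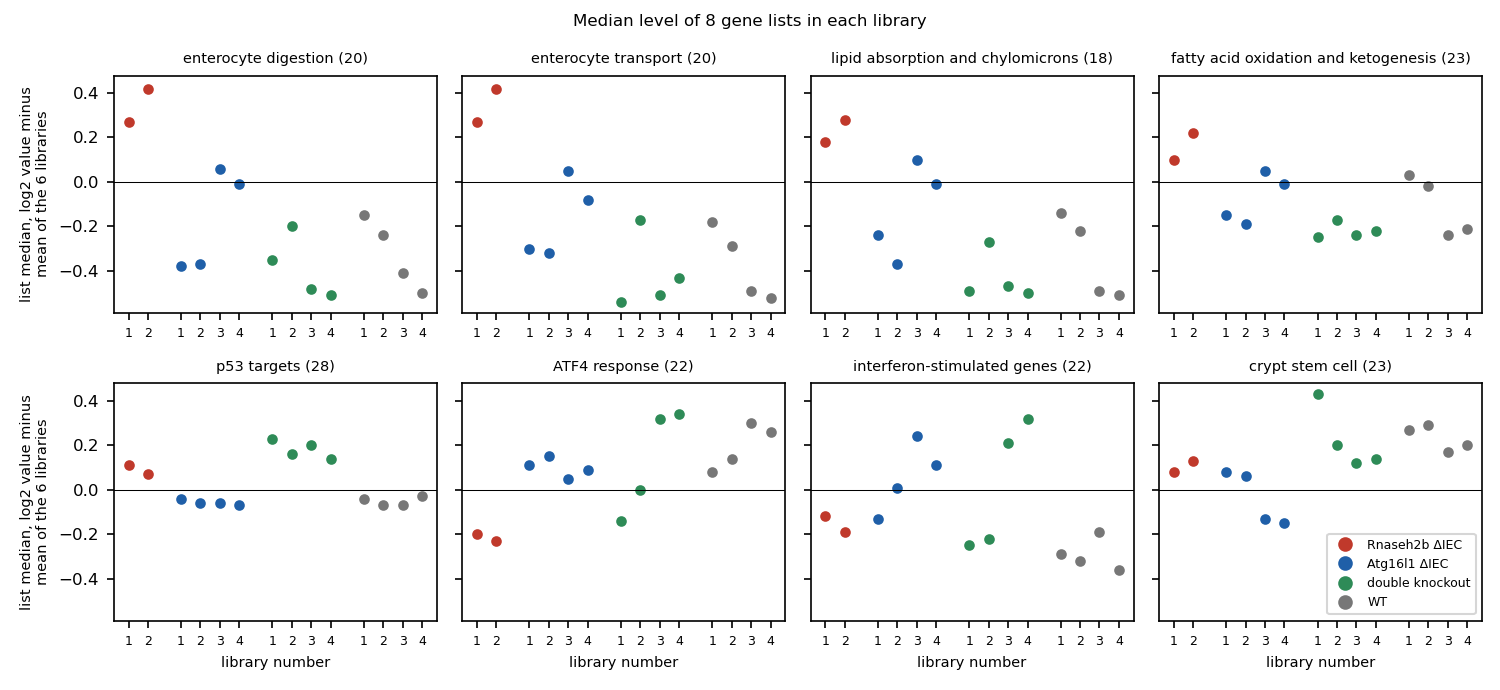
Each point is the median over the members of a gene list (number tested in brackets) of the log2 value minus the mean of the 6 compared libraries, for each of the 14 libraries by number within its group. Both Rnaseh2b ΔIEC libraries lie above all other libraries in the enterocyte lists, with Atg16l1 ΔIEC libraries 3 and 4 nearer to them than 1 and 2, and below all other libraries in the ATF4 list.

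Fatty acid oxidation and ketogenesis genes had 6 of 23 called higher (26.1%, against 6.81% of all genes), 0 lower, 22 above zero and a median of 0.25. None of the 6 was called with the pair as a random effect (adjusted p = 0.15 to 0.31), and none against *Atg16l1* ΔIEC libraries 3 and 4 alone. They comprised the regulator *Ppara* (0.47), *Acot1* (0.45), the carnitine carrier *Slc25a20* (0.41), *Cpt1a* (0.37), the entry enzyme of mitochondrial oxidation, *Acaa2* (0.36) and *Bdh1* (0.28). *Hadha*, an abundant member, was 0.16 higher and overlapped between the groups. Of 30 xenobiotic metabolism genes, 4 were called higher and 2 lower. Besides *Cyp3a11* and *Cyp2c29*, these were *Cyp2d26* (0.52) and *Gsta1* (0.47) upward, and the glutathione transferase *Gsta3* (-0.53) and the quinone reductase *Nqo1* (-0.32) downward. With the pair as a random effect *Cyp3a11* and *Cyp2c29* kept their calls (adjusted p = 0.020 and 0.036), and *Cyp2d26*, *Gsta1*, *Gsta3* and *Nqo1* lost theirs (0.30, 0.29, 0.33 and 0.35).

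Of 22 genes of the ATF4 response, 5 were called lower in *Rnaseh2b* ΔIEC (22.7%, against 6.81% of all genes) and 17 were not called. With the pair as a random effect *Slc7a11* was the 1 member called (adjusted p = 0.014), and *Atf5*, *Psat1*, *Psph* and *Phgdh* were not (0.19, 0.083, 0.24 and 0.23). ATF4 is the transcription factor of the integrated stress response, which raises amino acid synthesis and import. All 22 genes tested had a difference below zero (lowest -1.35, highest -0.01; median -0.31). The called members were *Slc7a11*, the factor *Atf5* (-0.66) and 3 enzymes of serine synthesis, *Psat1* (-0.58), *Psph* (-0.43) and *Phgdh* (-0.32). *Psat1* read 11.96 and 11.81 in *Rnaseh2b* ΔIEC and 12.52, 12.60, 12.34 and 12.41 in *Atg16l1* ΔIEC. Both *Rnaseh2b* ΔIEC libraries were below all 4 others, and the same held for 20 of the 22 genes, a separation in either direction seen in 37.8% of all genes. *Atf4* itself was lower by 0.20 and missed the threshold (adjusted p = 0.059). The list median was -0.20 and -0.23 in *Rnaseh2b* ΔIEC, 0.05 to 0.15 in *Atg16l1* ΔIEC and 0.08 to 0.30 in WT. In the double knockout it was -0.14 and 0.00 in lane 2 but 0.32 and 0.34 in lane 1, above all other libraries.

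Promoter sequence was read for the genes that carry these groups, from RefSeq windows of GRCm38.p6. The ATF4 core motif searched was TGATGNAA on both strands, where N is any base. It occurred in the windows of 7 of the 20 ATF4 list genes with a window (35.0%), of 4.51% of all 27025 genes with a window and of 2.67% of the 10041 tested genes with one. Of the 7 holders in the list *Slc7a11* was the 1 gene called, and the other called members, *Atf5*, *Psat1*, *Psph* and *Phgdh*, were not among them. Of the called genes with a window, 7.26% of those higher in *Atg16l1* ΔIEC and 2.04% of those higher in *Rnaseh2b* ΔIEC held it. The 250 bases before the start are shown for *Slc7a11* (chr3:50443614-50443863, minus strand) and *Pycr1* (chr11:120643749-120643998, minus strand), which are among the 12 largest falls and serve amino acid supply (*Pycr1* is not in the ATF4 list), with motif matches in capitals.
Slc7a11: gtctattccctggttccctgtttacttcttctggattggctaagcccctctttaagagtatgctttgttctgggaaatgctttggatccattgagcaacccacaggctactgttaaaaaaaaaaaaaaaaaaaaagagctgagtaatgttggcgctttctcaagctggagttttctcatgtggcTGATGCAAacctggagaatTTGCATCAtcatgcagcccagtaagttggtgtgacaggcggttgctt
Pycr1: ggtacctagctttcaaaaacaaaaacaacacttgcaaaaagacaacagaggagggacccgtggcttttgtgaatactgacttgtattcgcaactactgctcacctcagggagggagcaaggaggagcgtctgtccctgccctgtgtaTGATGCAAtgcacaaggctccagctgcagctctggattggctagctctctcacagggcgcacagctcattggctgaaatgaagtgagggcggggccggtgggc
*Slc7a11* has a match on each strand, at -66 to -59 and at -47 to -40 from the start, and *Pycr1* has a match at -103 to -96. The core motif of the enterocyte factor HNF4A, CAAAGTCCA on both strands, was searched as well. It occurred in 3 of 47 windowed genes of the enterocyte lists (*Alpi*, *Slc3a1* and *Treh*; 6.38%), in 1.81% of genes called higher in *Rnaseh2b* ΔIEC and in 0.647% of tested genes. None of *Alpi*, *Slc3a1* and *Treh* was called (adjusted p = 0.11, 0.052 and 0.17), so no called member with a window held it. List members without a window, the called gene *Mep1b* among them, were not searched. The window of *Cyp3a11* (chr5:145879855-145880104, minus strand), the largest rise with a match, holds it at -109 to -101, in capitals. The same window holds an ATF4 core match at -99 to -92, left in lower case.
Cyp3a11: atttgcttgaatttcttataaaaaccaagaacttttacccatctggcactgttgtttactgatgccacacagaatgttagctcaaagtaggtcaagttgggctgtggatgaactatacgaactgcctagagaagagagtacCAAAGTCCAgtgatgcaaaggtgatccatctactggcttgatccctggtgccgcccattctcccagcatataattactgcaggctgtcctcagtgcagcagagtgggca
A match describes these letters only and was not tested as a binding site.

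Of 28 p53 targets tested, 6 were called higher in *Rnaseh2b* ΔIEC (21.4%, against 6.81% of all genes) and 0 lower, with 24 above zero and a median of 0.13. The paper had already reported *Ano3*, *Ddit4l* and *Inka2* (as *Fam212b*) as raised in *Rnaseh2b* ΔIEC organoids from this sequencing. The share of calls thus rests partly on members known beforehand to be high in these data. *Ano3* was the 1 target called with the pair as a random effect, and *Phlda3*, *Ccng1*, *Inka2*, *Ddit4l* and *Bax* were not (adjusted p = 0.12, 0.30, 0.30, 0.38 and 0.36). *Ano3*, a calcium-activated scramblase gene, read 6.31 and 6.37 against 5.35, 5.40, 5.24 and 5.34, a difference of 1.01 ± 0.12 (adjusted p = 0.00024; pair as a random effect, 0.028). *Phlda3*, an inhibitor of AKT, read 9.39 and 9.32 against 8.83, 8.94, 8.89 and 8.94 (difference 0.46 ± 0.07; adjusted p = 0.0022). *Ccng1*, the cyclin G1 gene, read 12.79 and 12.73 against 12.50, 12.46, 12.49 and 12.43, and the groups did not overlap (difference 0.29 ± 0.08; adjusted p = 0.042). *Inka2* (0.50), *Ddit4l* (0.41) and the apoptosis effector *Bax* (0.23) were the other called members. *Cdkn1a*, the p21 cell cycle inhibitor, was 0.31 ± 0.10 higher and *Mdm2*, the ubiquitin ligase of p53, 0.17 ± 0.06 higher, and neither passed (adjusted p = 0.084 and 0.086). *Trp53* itself differed by -0.08 ± 0.06. The list median was 0.11 and 0.07 in *Rnaseh2b* ΔIEC, -0.07 to -0.04 in *Atg16l1* ΔIEC, -0.07 to -0.03 in WT and 0.14 to 0.23 in the double knockout.

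DNA damage signalling and repair genes had 0 of 24 called by limma (2 at an unadjusted p under 0.05, both lower) and a median of 0.02. *Parp1* and *Top1* both overlapped between the groups, with differences of 0.02 ± 0.07 and 0.00 ± 0.05. Among 11 genes of RNase H2 and ribonucleotide processing *Rnaseh2b* was the single call. The other subunit genes, *Rnaseh2a* (-0.01) and *Rnaseh2c* (0.02), were near zero, and *Samhd1*, which degrades deoxynucleotides, was 0.29 ± 0.11 higher (adjusted p = 0.13).

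In the list of interferon-stimulated genes 0 of 22 were called by limma in either direction, and 2, both lower, had an unadjusted p under 0.05. The list median was -0.20, and 20 of 22 lay below zero. Outside the list, *Ifit1bl2*, named after its values were seen, was called higher in *Rnaseh2b* ΔIEC (0.77; limma adjusted p = 0.0017; pair as a random effect, 0.028). *Oasl1* read 9.66 and 9.79 in *Rnaseh2b* ΔIEC and 9.89, 10.40, 10.59 and 10.52 in *Atg16l1* ΔIEC (difference -0.62 ± 0.36; adjusted p = 0.33). The list median was -0.12 and -0.19 in *Rnaseh2b* ΔIEC. In *Atg16l1* ΔIEC library 1 (-0.13) it lay within that range, while libraries 2 (0.01), 3 (0.24) and 4 (0.11) were higher. WT medians (-0.36 to -0.19) were not above those of *Rnaseh2b* ΔIEC. In the double knockout the median was -0.25 and -0.22 in lane 2 but 0.21 and 0.32 in lane 1. Of 15 nucleic acid sensing genes 1 was called, *Ddx41* (-0.18), a helicase reported to sense DNA; *Cgas* differed by 0.05 and *Mavs* by 0.01. In antigen presentation *B2m* (0.26) was the 1 call of 15, and *H2-K1* overlapped between the groups. The share called in each of these lists of 15 was 6.67%, against 6.81% of all genes. Neither *Ddx41* nor *B2m* was called with the pair as a random effect (adjusted p = 0.40 and 0.48).

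Few genes of the secretory lineages were called, at 5.26% to 7.69% of each list against 6.81% of all genes. Paneth cell genes had 1 of 19 called, *Reg4* (0.58), which is also an enteroendocrine gene and the single call of 19 in that list. Of those 19 enteroendocrine genes, 9 were lower and 1 higher in *Rnaseh2b* ΔIEC without overlap, beside 37.8% of all genes in either direction. Against *Atg16l1* ΔIEC libraries 3 and 4 alone, the Paneth median went from 0.09 to 0.33 and 2 members were called higher, beside 366 of all 12802 genes. *Lyz1*, which encodes the Paneth cell lysozyme, differed by -0.14 (adjusted p = 0.78) and *Defa24* by 0.34 (adjusted p = 0.36). In the goblet list 1 of 16 was called, *Clca1*, which read 7.55 and 7.26 against 8.03, 7.99, 8.23 and 8.47; *Tff3* (0.01) and *Fcgbp* (-0.08), the most abundant members, overlapped. Tuft cell genes had 1 of 13 called, *Avil* (-0.43), and 12 of 13 lay below zero (median -0.10). Of 23 crypt stem cell genes *Ephb2* (0.26) was called. *Lgr5* differed by -0.12 (adjusted p = 0.63) and *Olfm4* by 1.06 (adjusted p = 0.077). Against *Atg16l1* ΔIEC libraries 3 and 4 alone, 6 of the 23 stem cell genes were called higher, beside the same 366 of 12802. In proliferation genes 2 of 25 were called in opposite directions, *Rrm2* (0.15) and *Ccnb2* (-0.17). None of these calls held with the pair as a random effect: the adjusted p was 0.20 for *Reg4*, 0.12 for *Clca1*, 0.35 for *Avil*, 0.29 for *Ephb2*, 0.56 for *Rrm2* and 0.45 for *Ccnb2*.

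Among 32 autophagy genes *Atg16l1* and *Atg9a* were called (6.25%, against 6.81% of all genes). *Atg9a*, which encodes the membrane protein that supplies lipids to the autophagosome, read 9.87 and 9.85 against 9.52, 9.47, 9.41 and 9.47, a difference of 0.39 ± 0.04 (adjusted p = 0.00011; pair as a random effect, 0.023). The list median was 0.02. Lysosomal genes had 5 of 28 called higher, among them *Lipa* (0.45), *Ctsa* (0.39), *Ctsz* (0.21) and *Ctsd* (0.21). *Npc2* was called lower (-0.16), and the list median was 0.03. Calls in both directions made up 21.4% of the lysosomal list. None of the 6 was called with the pair as a random effect (adjusted p = 0.089 to 0.36). Unfolded protein response genes had 0 of 23 called by limma (7 at an unadjusted p under 0.05, 6 of them lower), and *Hspa5*, the main ER chaperone, differed by -0.13 ± 0.07.

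The other lists held few calls, at 0.0% to 13.3% of each list tested against 6.81% of all genes. Hypoxia and glycolysis genes had 0 of 28 called by limma (3 at an unadjusted p under 0.05, all lower; median -0.10). Of 21 cholesterol synthesis genes *Mvd* (-0.21) was called. In the cell death list *Ripk3*, the necroptosis kinase, was lower (-0.25) and *Bax* higher, with 2 calls among 25. The list of 15 epithelial chemokine and defence genes held 1 call in each direction. *S100g*, which is in this list but encodes a calcium-binding protein of absorption, was higher. *Nos2*, the inducible nitric oxide synthase, was lower and read 5.70 and 5.79 against 6.22, 6.36, 6.73 and 6.55 (difference -0.72 ± 0.15; adjusted p = 0.014). *Axl* (0.23) was the 1 call among 21 regenerative and YAP target genes. *S100g* was called again with the pair as a random effect (adjusted p = 0.0096), while *Mvd* (0.50), *Ripk3* (0.16), *Bax* (0.36), *Nos2* (0.14) and *Axl* (0.47) were not. The 5 stromal and immune genes and 5 sex-linked genes tested gave 0 calls by limma, with 2 and 0 at an unadjusted p under 0.05, and 0 mitochondrially encoded genes were in the table.

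**Figure D4:**
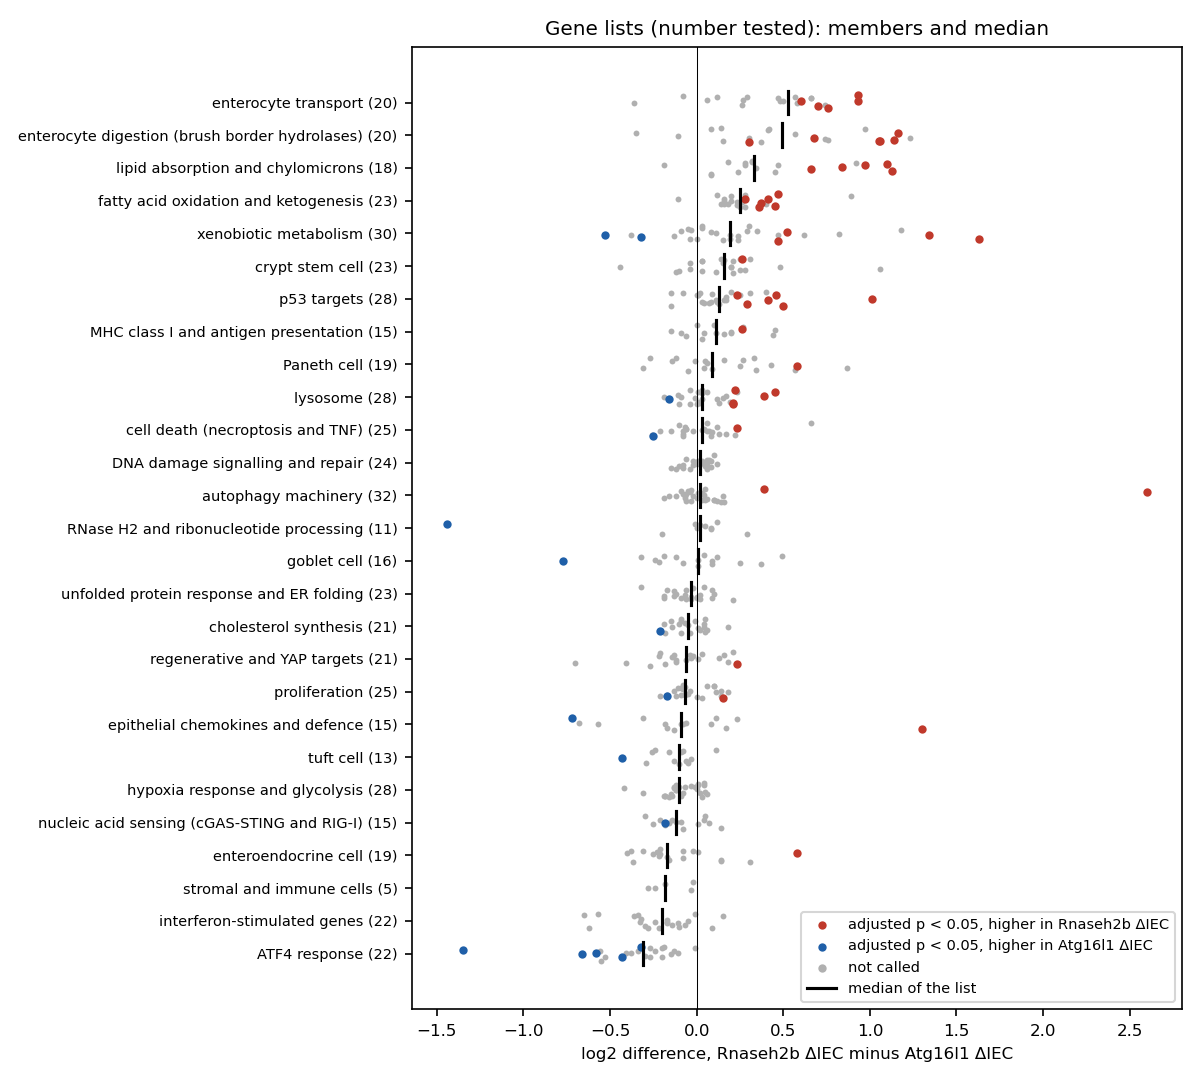
Each point is a member of a gene list (number tested in brackets) at its log2 difference, Rnaseh2b ΔIEC minus Atg16l1 ΔIEC; red and blue points are called higher in Rnaseh2b ΔIEC and Atg16l1 ΔIEC, grey points are not called, and black bars are list medians. The enterocyte lists lie furthest right, with medians from 0.33 to 0.53, and the ATF4 list furthest left at -0.31.

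Because the groups carry different engineered loci, the neighbourhoods of both targets were examined. Within 5 Mb of *Atg16l1*, 10 of 61 other genes tested were called (16.4%, against 6.81% of all genes), 4 higher and 6 lower in *Rnaseh2b* ΔIEC. Within 5 Mb of *Rnaseh2b*, 1 of 61 was called (1.64%), *Sap18* (0.24). Within 10 Mb the shares were 16.2% and 3.92%. Within 5 Mb of *Atg16l1* the largest called differences after *Ugt1a8* were in *2810459M11Rik* (0.51), the clock gene *Per2* (-0.50), *Ugt1a7c* (0.37), the phosphatase gene *Ilkap* (-0.33) and the cilium gene *Traf3ip1* (0.32). The other called genes there were *Ugt1a6b* (-0.29), *Ugt1a10* (-0.28), *Erfe* (-0.26) and *Cab39* (0.18). Called *Ugt1a* genes thus differed in opposite directions. *Ugt1a7c* read 12.13 and 12.14 against 11.80, 11.70, 11.82 and 11.78, while *Ugt1a8*, *Ugt1a6b* and *Ugt1a10* were lower. *Ilkap* read 10.20 and 10.20 against 10.51, 10.54, 10.51 and 10.55. With the pair as a random effect 3 of the 10 neighbours were called, *Ugt1a8*, *2810459M11Rik* and *Ilkap*. The alkaline phosphatase genes *Akp3* (1.23; adjusted p = 0.059) and *Alpi* (0.74; adjusted p = 0.11), members of the hydrolase list, lie 0.63 and 0.65 Mb before *Atg16l1* and were not called.

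**Figure D5:**
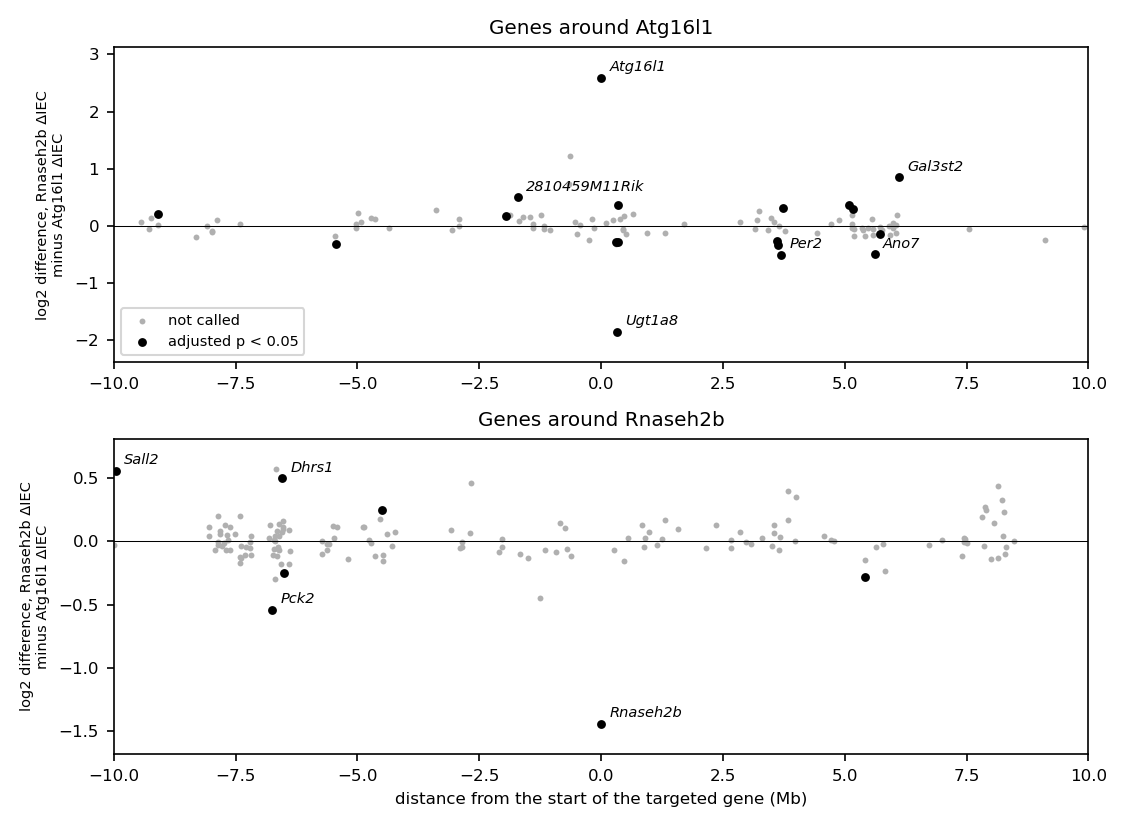
Each point is a gene tested within 10 Mb of the start of Atg16l1 (top) or Rnaseh2b (bottom), with its distance in Mb on the x axis and its log2 difference, Rnaseh2b ΔIEC minus Atg16l1 ΔIEC, on the y axis; black points are called. Calls are denser around Atg16l1 (16.2% of the other genes) than around Rnaseh2b (3.92%).

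The 61 genes called with the pair as a random effect included several outside the lists, named here after their values were seen. Among those higher in *Rnaseh2b* ΔIEC were *Slc5a12* (0.99), *Slc28a1* (0.72), *Cyp4b1* (1.09), *Ass1* of urea cycle and arginine synthesis (0.93) and *Pck1* of gluconeogenesis (0.43). *Mbl2*, a mannose-binding lectin, read 5.04 and 4.86 against 3.82, 3.89, 3.99 and 3.90, with WT at 3.77 to 3.87. *Nr0b2*, a nuclear receptor of bile acid control, read 4.74 and 4.74 against 4.01, 3.99, 4.13 and 4.13. The WT mean was nearer to *Atg16l1* ΔIEC in 48 of the 61 genes and nearer to *Rnaseh2b* ΔIEC in 13. *Opa1*, the mitochondrial fusion GTPase, read 11.77 and 11.82 against 11.19, 11.28, 11.22 and 11.20, with WT at 11.74 to 11.82 (difference 0.57; adjusted p = 1.2e-06). *Wdr55* read 9.72 and 9.66 against 8.81, 8.83, 8.62 and 8.62, with WT at 9.60 to 9.72 (difference 0.97). *Drg2* (0.58) and *Vps11* (0.46), a subunit of the endosomal tethering complexes, followed *Opa1* and *Wdr55* in level order, with *Atg16l1* ΔIEC below *Rnaseh2b* ΔIEC and WT. *Apoa2*, *Pcp4l1* (1.15) and *Tomm40l* (0.32) are close neighbours on chromosome 1, and all 3 were higher in *Rnaseh2b* ΔIEC. Their WT levels did not share 1 pattern. For *Apoa2* (5.24 to 5.62) and *Pcp4l1* (4.46 to 4.69) WT was nearer to *Atg16l1* ΔIEC. For *Tomm40l* WT (10.26 to 10.38) was at the level of *Rnaseh2b* ΔIEC (10.30 and 10.32), and *Atg16l1* ΔIEC was lower (9.96 to 10.01).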

How the data were processed

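Poly(A) RNA of untreated small intestinal organoids was sequenced. The authors used cutadapt for trimming, TopHat2 for alignment (GRCm38), HTSeq for counting and DESeq2 for testing; versions are not given in the sources used here. The authors deposited 1 table of log2 values, normalised between libraries, whose transformation is not named and which compresses low values. Depth per library is therefore unknown. All 14 columns were matched to samples by library name. Symbols and positions came from GENCODE M21 (99.7% of identifiers matched) and promoter windows from RefSeq (GRCm38.p6; chromosome 18 left out).

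Genes with a mean of at least 3.32 were fitted with limma (version 3.58.1, R 4.3.3; mean trend, 1 mean per genotype over 14 libraries, no covariate) as Rnaseh2b ΔIEC minus Atg16l1 ΔIEC, with Benjamini-Hochberg adjustment over 12802 genes and a threshold of 0.05. Groups came from the labels. Libraries 1 and 2, and 3 and 4, of a genotype formed the pairs of the random-effect fit. The main fit was tested on simulated data with independent libraries. That simulation held no pairs, so it cannot show how the main fit behaves with them, and the random-effect fit was not tested. Named genes were both targets, the 12 largest called rises and falls without overlap (unnamed predicted genes, pseudogenes and sex-linked genes left out), up to 5 called and 2 abundant uncalled members of each list, sex-linked genes, up to 6 called neighbours of each target, and Trp53, Ccng1, Mdm2 and Ddit4l. The genes, lists and tests were chosen with earlier results of these data known. Alternatives covered filters, scaling, pseudocounts, lane, blocks, pairs, sex and left-out replicates. Some named genes are not reported here.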

Additional observations from a re-analysis of the deposited data

Results flagged for a closer look

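In 188 groups of 4 libraries, a library that stood apart from the other 3 was looked for, and 6 were found; about 1 in 20 groups is flagged by chance. Within Atg16l1 ΔIEC these were Avil in library 2 (7.41, the others 7.15 to 7.18), Top1 in library 1 (11.89, the others 11.70 to 11.73) and Ripk3 in library 1 (10.97, the others 11.07 to 11.08). Atg16l1 in WT library 2 read 9.54 (the others 9.43 to 9.44). In double knockout library 1, Tinag read 9.41 (the others 9.28 to 9.30) and Bace2 read 8.47 (the others 8.12 to 8.13).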

How the results depend on the processing

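Counts are called genes, then those higher in Rnaseh2b ΔIEC and in Atg16l1 ΔIEC, beside 872, 556 and 316. With the lane as a covariate they were 1622, 984 and 638; with the library pair as a random effect 61, 53 and 8 (1213 at an unadjusted p under 0.05); with paired libraries averaged 2, 1 and 1 (789 at an unadjusted p under 0.05), where Rnaseh2b kept its difference of -1.44 but not its call (adjusted p = 0.065). Leaving out 1 replicate gave 90 to 894 called genes, 74 to 600 higher in Rnaseh2b ΔIEC and 16 to 294 higher in Atg16l1 ΔIEC; the lowest were without Rnaseh2b ΔIEC replicate 2, which leaves that group 1 library assumed to vary like the others, and the falls also dropped without Atg16l1 ΔIEC replicate 2 (203) or 4 (161). Scaling to equal totals gave 523 genes higher in Atg16l1 ΔIEC, Atg16l1 ΔIEC libraries 3 and 4 alone gave 366 higher in Rnaseh2b ΔIEC, and an absolute difference over 1 left 33. The cause of these shifts was not tested, apart from the loss of libraries or stricter size by construction.

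With the replicate block 424 genes were called, 289 higher in Rnaseh2b ΔIEC and 135 higher in Atg16l1 ΔIEC. A pairing by number was not shown: only 2 numbers are shared, and Rnaseh2b ΔIEC library 1, whose deviations mirror those of library 2, correlated with both Atg16l1 ΔIEC library 1 (r = 0.45) and library 2 (r = 0.22). With sex as a covariate, added after seeing the data, the Y-linked genes Kdm5d and Ddx3y reversed to -0.47 and -0.52. No other named gene reversed while called. Of 78 called named genes, 1 kept its call with paired libraries averaged, 18 with the pair as a random effect, 22 and 16 without Rnaseh2b ΔIEC replicate 1 or 2, 37 with the block, 72 with equal totals and 59 without the filter. Medians within about 0.03 of zero (goblet, autophagy, lysosome, DNA damage, RNase H2 and cell death lists) fell below zero with equal totals. Depth limits could not be set, since no counts were given.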
